A study of Mus musculus with 7 samples.

Results

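The 10 genes described here encode regulators of G protein signalling (RGS): Rgs1, Rgs2, Rgs3, Rgs4, Rgs7, Rgs8, Rgs9, Rgs10, Rgs16 and Rgs17. They were taken by symbol from the 32531 gene rows of each library, and all 10 had a row and passed the filter on low counts. The family's pericyte gene, Rgs5, was left out of the set. It is among 12 other genes with an RGS symbol that have a row and are not in the set. The source was adult midbrain of control mice from 1 transgenic line, Stard8-TRAP (ES2342). It makes EGFP/Rpl10a, a ribosomal protein with a fluorescent tag, in cells chosen by Stard8 regulatory sequence. Anti-EGFP beads pulled down the tagged polysomes with their RNA (IP, 3 libraries, numbered 1, 2 and 4), and 4 further libraries, numbered 1 to 4, hold the unbound RNA. Both groups carry the transgene, and neither had a treatment. IP 3 was not analysed here. The labels do not say whether libraries came from separate animals, so p-values measure only the spread between these libraries.

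RGS proteins switch G protein signals off. Each has an RGS domain that binds the active, GTP-bound alpha subunit of a heterotrimeric G protein and speeds up its hydrolysis of GTP. The R4 subfamily (here Rgs1, Rgs2, Rgs3, Rgs4, Rgs8 and Rgs16) holds mostly small proteins. R7 proteins (Rgs7, Rgs9) form stable complexes with the atypical beta subunit Gnb5, Rgs17 belongs to the RZ group, whose members act on Gnaz and other inhibitory alpha subunits, and Rgs10 to the R12 group. In the brain several of them set how long receptors for dopamine, opioids, acetylcholine and GABA act on potassium and calcium channels, and others are better known from blood and vessel cells.

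Of the 10 RGS genes, 2 were higher in IP (Rgs3 and Rgs4), 5 were lower (Rgs7, Rgs8, Rgs9, Rgs16 and Rgs17) and 3 did not pass the test (Rgs1, Rgs2 and Rgs10). The background was large, since 39.4% of the 17654 genes tested passed, 20.5% as higher and 18.9% as lower in IP. The 2 of 10 higher are close to that background, and the 5 of 10 lower are above it, with no test made of either. The genes were chosen with earlier results of these data known, so the comparison is a description only. Without IP 1 or IP 2 the lower count was 3. The median log2 fold change of the 10 genes was -0.46, against -0.10 over all genes tested. Over the 10 other tested genes with an RGS symbol it was 0.17. The test was edgeR's quasi-likelihood test with Benjamini-Hochberg adjustment over all genes at 0.05, and levels are CPM, with library sizes scaled by TMM. In bulk RNA, fewer cells of a type and less RNA per cell cannot be told apart.

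Counts in genes ran from 52052340 to 76114634 per library, and 3 counts stand for 0.0376 to 0.059 CPM. The series' title speaks of neurons, but all 10 of the pan-neuronal markers listed for this check were lower in IP, and their summed level was 3495 to 7841 CPM in IP and 13330 to 20930 CPM in unbound. All 10 endothelial markers were higher (1510 to 1812 CPM in sum, against 13.1 to 18.7), as were all 10 of pericytes and smooth muscle (1681 to 1958 against 21.7 to 39.8) and all 10 of microglia and macrophages (1160 to 1225 against 57.1 to 88.9). Of 10 markers of midbrain dopaminergic neurons, 1 was higher (Aldh1a1), 1 lower (Slc6a3) and 8 did not pass (median log2 fold change 0.03). Their sum was 548 to 610 CPM in IP and 281 to 451 CPM in unbound. Aldh1a1 alone held most of that sum in every IP library, with 345, 391 and 326 CPM in IP 1, 2 and 4. In unbound it had 60.6 to 181 CPM. All 10 oligodendrocyte markers were lower (909 to 1696 against 5357 to 7326 CPM in sum). Of the astrocyte and of the fibroblast and meningeal markers, 7 of 10 each were higher. IP 4 held the highest pan-neuronal sum of the IP libraries, 7841 CPM against 3495 in IP 1 and 3801 in IP 2. The part of these cell types in the RGS results was not tested.

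**Figure D1:**
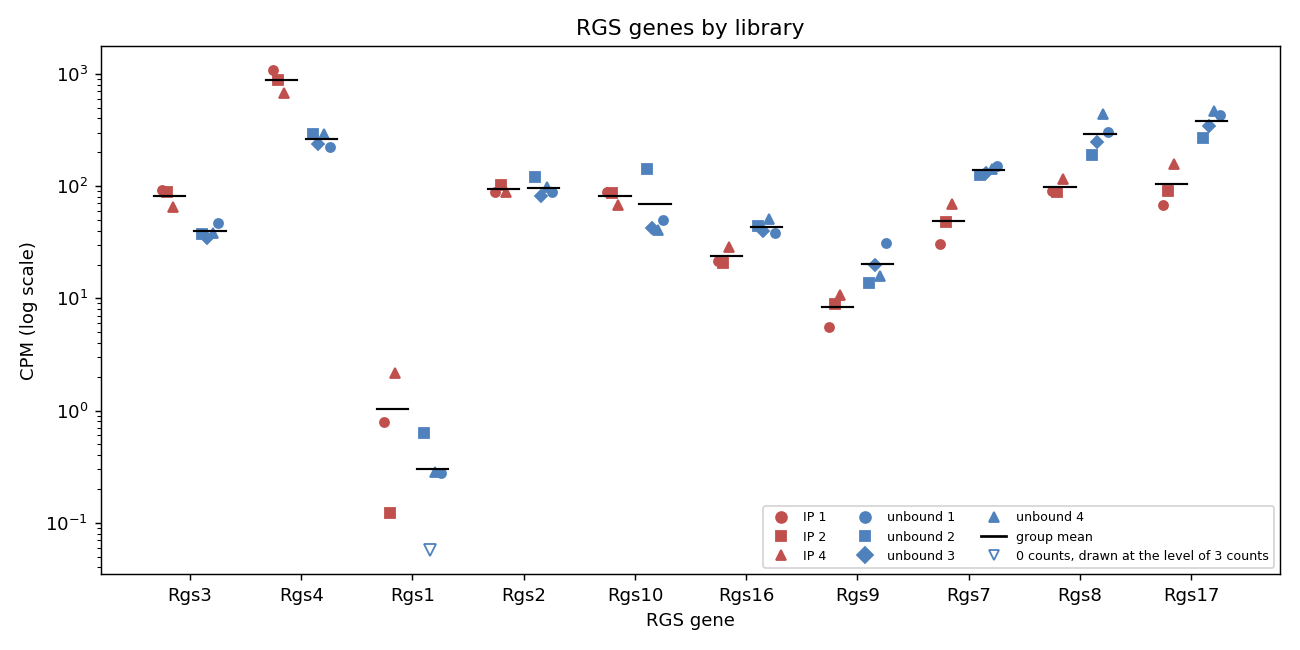
Level of each RGS gene in every library, in CPM on a log axis. Red marks are the 3 IP and blue marks the 4 unbound libraries, black lines are group means, and the open triangle is unbound 3 for Rgs1, with 0 counts. Rgs3 and Rgs4 sit higher in every IP library, Rgs7, Rgs8, Rgs9, Rgs16 and Rgs17 lower, and the groups overlap for Rgs1, Rgs2 and Rgs10.

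Rgs4, which acts on the Gi/o and Gq classes of alpha subunit and is widely expressed in neurons and in vessel wall cells, rose in IP. It had 1083, 890 and 673 CPM in IP 1, 2 and 4, and 223, 293, 237 and 294 CPM in unbound 1 to 4. Every IP library lay above every unbound library, and IP 4 was the lowest of the 3. Mean levels were 882 ± 205 CPM for IP (SD, n = 3) and 262 ± 36.7 CPM for unbound (SD, n = 4). The log2 fold change was 1.75 ± 0.25 (standard error, edgeR adjusted p = 0.000352). Within the libraries that share index sequence ACAGTG the change was 1.94 (adjusted p = 0.0153) and within those of GTGAAA 1.36. Index GTGAAA holds 1 IP library, IP 4, so values within it have no replicate check on the IP side.

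Rgs3, a longer R4 protein with several isoforms that the gene counts do not separate, rose as well. Its levels were 91.9, 88.7 and 65.2 CPM in IP 1, 2 and 4 and 47.0, 37.5, 34.8 and 38.5 CPM in unbound 1 to 4. The groups did not overlap, as in 25.1% of all genes tested with IP above unbound and in 22.7% with IP below. IP 4 was again the lowest IP library. The log2 fold change was 1.05 ± 0.22 (edgeR adjusted p = 0.00359), with 1.10 within index ACAGTG (adjusted p = 0.0476) and 0.85 within GTGAAA.

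Rgs17, the RZ member of the set, had the lowest log2 fold change of the 10. It held 68.0, 89.6 and 158 CPM in IP 1, 2 and 4, and 430, 270, 341 and 469 CPM in unbound 1 to 4. No IP library reached the lowest unbound library, and IP 4 was the highest of the IP libraries. On the log2 scale it fell by 1.84 ± 0.34 (edgeR adjusted p = 0.00182).

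Rgs8, an R4 protein that acts on Gi/o alpha subunits and was studied for its effect on potassium channels of the GIRK family and in cerebellar Purkinje cells, fell too. It had 90.7, 89.0 and 115 CPM in IP 1, 2 and 4, and 304, 190, 246 and 435 CPM in unbound 1 to 4. The groups did not overlap, and the unbound libraries spread more widely than the IP libraries (SD 105 and 14.7 CPM). It fell by 1.58 ± 0.31 on the log2 scale (edgeR adjusted p = 0.0025).

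Both R7 members were lower. Rgs7, a regulator of Gi/o signals across the brain, had 30.3, 47.8 and 69.4 CPM in IP 1, 2 and 4 and 152, 127, 132 and 143 CPM in unbound 1 to 4. It fell by 1.49 ± 0.29 (edgeR adjusted p = 0.00232). Its 3 IP values rank as the pan-neuronal sum does, lowest in IP 1 and highest in IP 4. Those of Rgs9 and Rgs17 rank the same way, and those of Rgs8 and Rgs16 do not. The part of neurons in these values was not tested. Rgs9, known from the retina and the striatum, was scarcer, with 5.5, 8.82 and 10.7 CPM in IP and 31.3, 13.8, 19.9 and 15.9 CPM in unbound 1 to 4. It fell by 1.28 ± 0.36 (edgeR adjusted p = 0.0169), but it missed the threshold when IP 1 (-1.03, adjusted p = 0.0792) or IP 2 (-1.31, adjusted p = 0.0577) was left out, and within index ACAGTG (-1.65, adjusted p = 0.0706).

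Rgs16, an R4 protein that acts on Gi and Gq alpha subunits, was the smallest of the 5 decreases. It had 21.6, 20.6 and 28.8 CPM in IP 1, 2 and 4 and 38.4, 43.6, 40.0 and 51.2 CPM in unbound 1 to 4. The groups did not overlap. It fell by 0.87 ± 0.23 on the log2 scale (edgeR adjusted p = 0.0123), and it too missed the threshold with IP 1 (-0.80, adjusted p = 0.0671) or IP 2 (-0.77, adjusted p = 0.0756) left out, and within index ACAGTG (-0.96, adjusted p = 0.0672). An antisense gene covers 10.1% of its exon bases. Ambiguous reads were left out of the gene counts. Of all counts in a library, gene and no-gene rows together, they made up 1.43% to 1.63% in IP and 7.26% to 11.5% in unbound. Their part in the Rgs16 value was not tested.

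Promoter sequences are shown for Rgs4, the most abundant gene that rose, and for Rgs17 and Rgs7, which fell together. RefSeq starts (GRCm38.p6) were found for 9 of the 10 genes, with 12 windows of 250 bases before a start. Capitals mark matches on either strand to 4 motifs, none of which contains another: the GC box GGGCGG, the CCAAT box CCAAT, the TATA box TATAAA and the core of the cyclic AMP response element, TGACG. The windows, 5′ to 3′ on the minus strand, are chr1:169747643-169747892 for Rgs4, chr10:5922401-5922650 for Rgs17 and chr1:175492546-175492795 for Rgs7.
Rgs4: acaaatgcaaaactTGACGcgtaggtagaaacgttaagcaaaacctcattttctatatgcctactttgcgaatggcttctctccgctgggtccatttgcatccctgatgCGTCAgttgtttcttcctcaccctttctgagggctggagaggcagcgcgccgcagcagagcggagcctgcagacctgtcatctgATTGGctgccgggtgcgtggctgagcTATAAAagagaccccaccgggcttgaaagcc
Rgs17: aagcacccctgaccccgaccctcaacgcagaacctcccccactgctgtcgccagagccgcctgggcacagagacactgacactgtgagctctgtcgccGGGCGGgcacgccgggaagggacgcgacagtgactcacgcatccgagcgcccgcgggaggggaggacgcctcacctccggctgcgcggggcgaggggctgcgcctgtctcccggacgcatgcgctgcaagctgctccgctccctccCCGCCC
Rgs7: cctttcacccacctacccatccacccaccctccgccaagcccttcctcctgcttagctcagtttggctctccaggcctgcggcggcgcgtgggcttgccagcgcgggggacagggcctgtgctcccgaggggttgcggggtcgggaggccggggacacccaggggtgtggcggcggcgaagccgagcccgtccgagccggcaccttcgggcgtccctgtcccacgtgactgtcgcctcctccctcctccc
In Rgs4 a TATA box begins 31 bases before the start, a CCAAT box 57 bases before it, and TGACG matches begin at 141 and 236 bases. Rgs17 held 2 GC boxes, and Rgs7 held a match to none of the 4. The GC content was 53.6% for Rgs4 and 72.4% for each of the others, against a median of 52.4% over 32851 promoter windows. In those windows TATAAA was found in 12.4%, CCAAT in 33.8%, TGACG in 17.8% and GGGCGG in 32.7%, and in 4, 6, 3 and 6 of the 12 windows of the RGS genes. A match is a run of letters and shows no binding.

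Rgs2, which prefers Gq alpha subunits and dampens vasoconstrictor signals, had 88.8, 103 and 89.4 CPM in IP 1, 2 and 4 and 89.3, 120, 81.9 and 97.4 CPM in unbound 1 to 4. The groups overlapped. Its log2 fold change was -0.05 ± 0.22 (95% interval -0.53 to 0.43, edgeR adjusted p = 0.878). A p that misses the threshold does not show that levels were alike.

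Rgs10, the R12 member, which microglia express strongly, had 88.7, 86.1 and 67.5 CPM in IP 1, 2 and 4. In unbound 1 to 4 it had 50.3, 142, 42.3 and 40.3 CPM. Unbound 2 stood above every other library, and the remaining 3 unbound libraries lay below every IP library. The log2 fold change over all libraries was 0.23 ± 0.42 (95% interval -0.69 to 1.16, edgeR adjusted p = 0.69), and without unbound 2 it was 0.86 (adjusted p = 0.00558). Within index ACAGTG, which holds unbound 2, it was -0.14 (adjusted p = 0.865) and within GTGAAA 0.73. The microglia and macrophage marker sum was 88.9 CPM in unbound 2 and 86.2 CPM in unbound 3, where Rgs10 was at 42.3 CPM. Single markers of that list went either way between these libraries. C1qb had 21.6 CPM in unbound 2 and 15.9 CPM in unbound 3, and Csf1r had 9.81 and 18.1 CPM. The part of microglia in the Rgs10 values was not tested.

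Rgs1, best known from lymphocytes and myeloid cells, where it limits responses to chemokines, was scarce. It had 59, 7 and 111 counts in IP 1, 2 and 4 and 22, 37, 0 and 16 counts in unbound 1 to 4. That is 0.787, 0.122 and 2.18 CPM in IP, a wider span than that between the group means of 1.03 and 0.298 CPM. Its log2 fold change of 1.78 ± 1.23 (95% interval -0.95 to 4.50, edgeR adjusted p = 0.277) was 0.01 within index ACAGTG (adjusted p = 0.997) and 3.92 within GTGAAA, where IP 4 alone stands for IP. Leaving out single libraries moved it between 0.62 and 2.44. In sum, 9 measured markers of other leukocytes had 5.82, 2.68 and 18.1 CPM in IP 1, 2 and 4 and 0.103 to 1.57 CPM in unbound. Most of the sum in each IP library was S100a8 and S100a9, at 5.13 and 11.05 CPM in IP 4. Cd3e and Cd79a, the other genes of the list that were tested, did not pass. Cd3g and Nkg7 had 0 counts in every IP library. The part of these cells in the Rgs1 values was not tested.

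**Figure D2:**
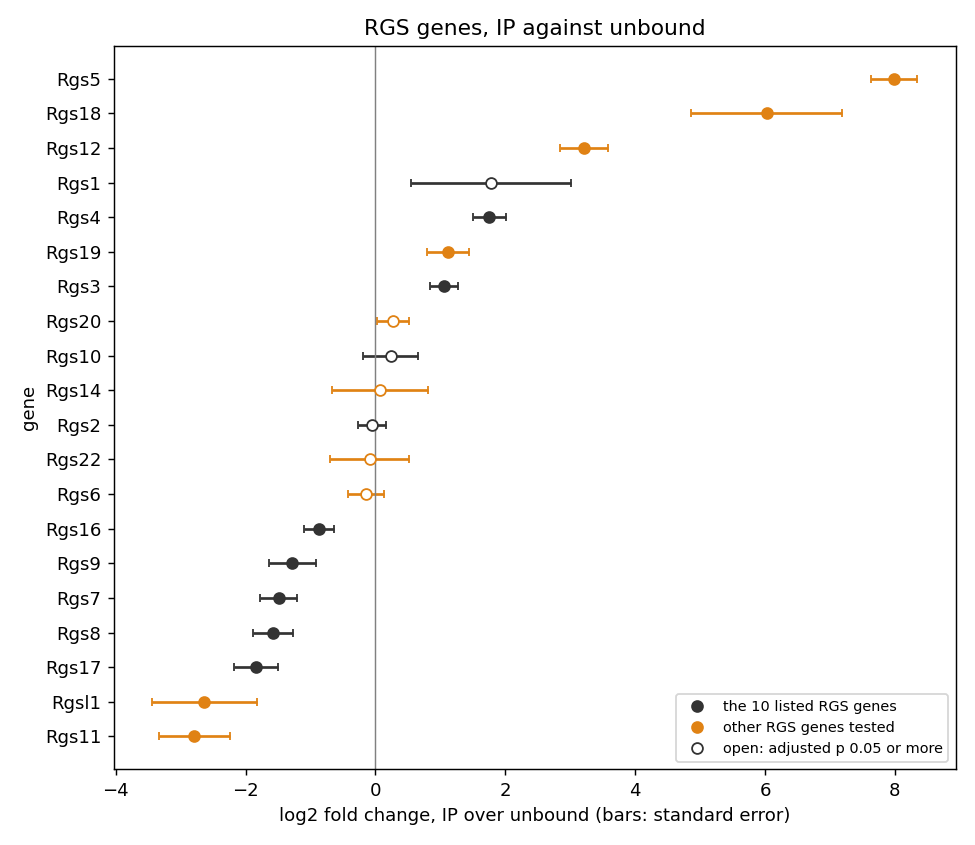
Log2 fold change of IP over unbound for the 10 RGS genes (black) and the 10 other tested genes with an RGS symbol (orange), with bars for the standard error. Filled marks passed the threshold: Rgs3 and Rgs4 lie at 1.05 and 1.75, and the 5 lower genes between -1.84 and -0.87.

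The summed level of the 10 genes overlapped between the groups, at 1280 to 1569 CPM in IP and 1176 to 1585 CPM in unbound. Their shares in that sum did not all overlap. Rgs4 alone took 69%, 62.5% and 52.6% of the counts of the 10 genes in IP 1, 2 and 4. It took 16.35%, 23.7%, 20.2% and 18.5% in unbound 1 to 4. The nearest libraries of the groups were IP 4, with an exact binomial 95% interval of 52.2% to 53%, and unbound 2, with 23.4% to 24%. These intervals cover counting error only.

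Rgs17 took the other direction, with 4.33%, 6.29% and 12.3% of the RGS counts in IP 1, 2 and 4. Its shares were 31.5%, 21.9%, 29% and 29.6% in unbound 1 to 4. The count ratio of Rgs4 to Rgs17, which needs no library scaling, was 15.9, 9.94 and 4.26 in IP and 0.519, 1.08, 0.695 and 0.627 in unbound. For 2 genes that both fell, Rgs7 over Rgs17 was 0.446, 0.534 and 0.44 for the IP libraries and 0.305 to 0.468 for the unbound ones, so the groups overlapped.

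**Figure D3:**
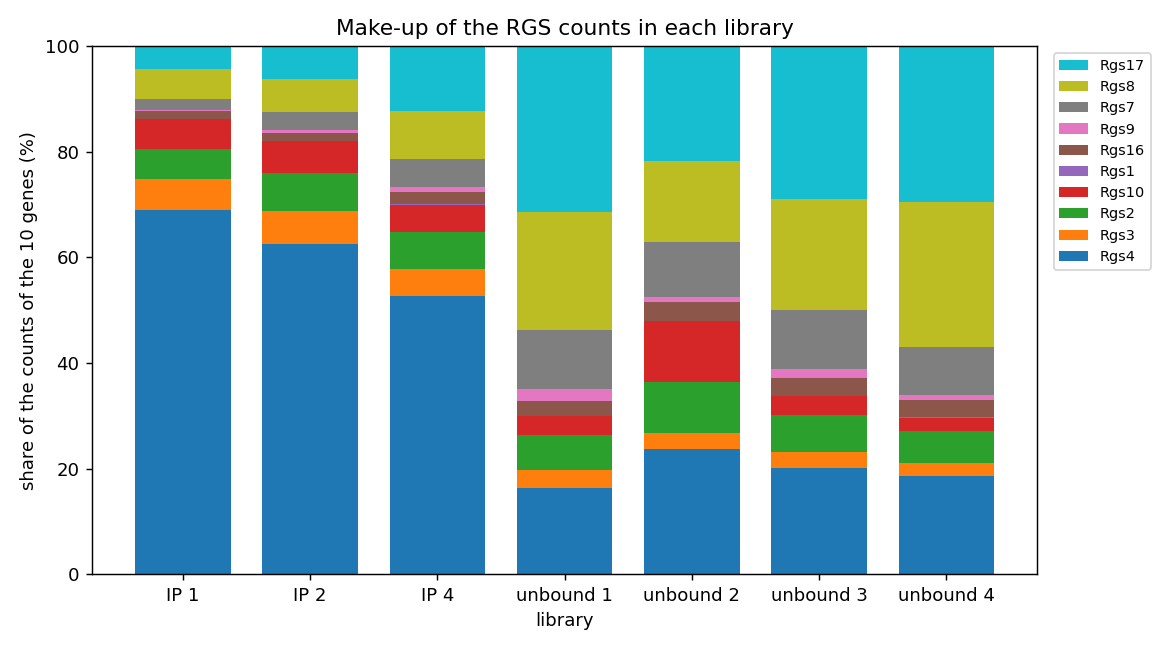
Share of each RGS gene in the counts of the 10 genes, in percent, with 1 bar per library. Rgs4 (bottom, dark blue) fills 52.6% to 69% of the IP bars and 16.35% to 23.7% of the unbound bars, and Rgs17 (top) shrinks from at least 21.9% in unbound to at most 12.3% in IP.

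Set against the summed CPM of the 10 pan-neuronal markers in the same library, 4 of the 5 lower genes overlapped between the groups. This count has no share over all genes beside it, and the part of neurons in the decreases was not tested. Rgs17 stood at 1.95%, 2.36% and 2.02% of that sum in IP 1, 2 and 4 and at 1.76% to 3.23% in unbound. Rgs7 stood at 0.868% to 1.26% in IP and 0.683% to 1.14% in unbound, and Rgs8 at 1.47% to 2.6% and 1.24% to 2.28%. Rgs9 stood at 0.136% to 0.232% and 0.0761% to 0.235%. Snap25 made up 68.8% to 74.1% of the sum. With Snap25 left out, a choice made after seeing the data, these 4 genes still overlapped, but against single markers not all did. Rgs17 was lower in every IP library against 2 of the 10 markers, one of them Rbfox3 (0.989 to 1.13 times its CPM in IP and 1.55 to 2.29 times in unbound), and Rgs7 against 1.

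The sum was lower in IP, so this scale raises every gene in IP, and a gene that separates on it need not have changed. Rgs4 stood at 31%, 23.4% and 8.58% of the sum in IP 1, 2 and 4 and at 1.28% to 1.91% in unbound. Both Rgs4 and Rgs3 (0.832% to 2.63% against 0.184% to 0.353%) were also higher in every IP library against each of the 10 markers alone. Rgs16 and Rgs2, which separated on the sum, did so against 5 and 6 of the 10. A sum that was higher in IP gave the other direction. Of the pericyte and smooth muscle sum, Rgs4 stood at 40.0% to 55.3% in IP and at 739% to 1029% in unbound. These ratios are descriptions, and no test was made on them. The share of all genes tested that separate on these scales is not given, so these counts have no background.

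**Figure D4:**
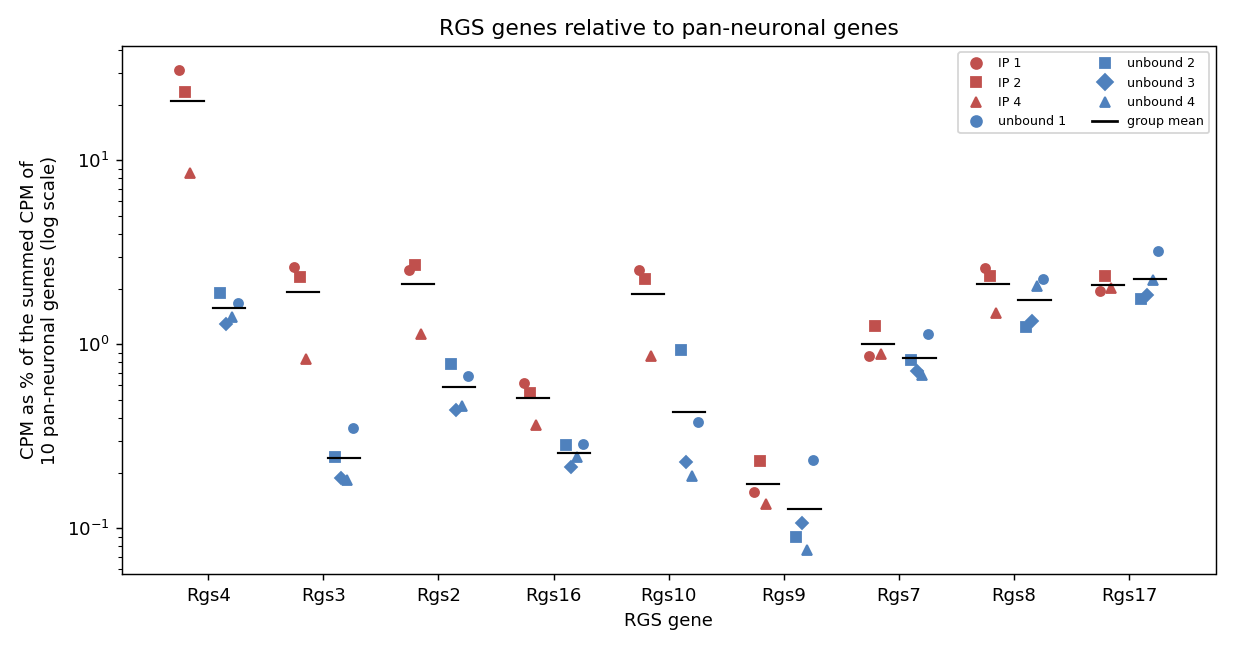
CPM of 9 RGS genes as a percentage of the summed CPM of 10 pan-neuronal genes in the same library, on a log axis, with IP in red, unbound in blue and group means as black lines. The groups separate for Rgs4, Rgs3, Rgs2 and Rgs16 and overlap for Rgs10, Rgs9, Rgs7, Rgs8 and Rgs17, on a scale whose denominator is lower in IP.

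Per kilobase of exon, Rgs4 had the highest level in both groups. It had 300 ± 69.7 CPM per kb in IP and 89.0 ± 12.5 in unbound. In IP it was followed by Rgs10 (70.8 ± 10.2) and Rgs2 (28.8 ± 2.50), and the library ranges of these 3 genes did not overlap. Rgs2, Rgs7, Rgs17, Rgs8, Rgs3 and Rgs16 followed with ranges that overlapped from each to the next, between 28.8 and 10.1 CPM per kb, above Rgs9 (1.37 ± 0.433) and Rgs1 (0.268 ± 0.274). In unbound the ranges of neighbours overlapped from Rgs4 through Rgs10, Rgs7, Rgs17, Rgs8 and Rgs2, then came Rgs16 (18.5 ± 2.44), Rgs3 (5.04 ± 0.676) and Rgs9 (3.33 ± 1.28), of which the last 2 overlapped, and Rgs1 (0.0777 ± 0.0678). Lengths were the exon bases of GENCODE's basic transcripts. With all transcripts Rgs7, whose length grows from 2512 to 6019 bases, would stand at 8.17 and not 19.6 CPM per kb in IP, and at 23.0 and not 55.1 in unbound.

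Of the 10 genes, 6 lie on chromosome 1 (GRCm38, all protein coding), and 5 of these have another gene of the family as their nearest protein-coding neighbour on at least 1 side. Rgs4 (169741477 to 169747642, minus strand) is 45.7 kb from Rgs5 with no protein-coding gene between. Both were higher in IP, Rgs5 with 2309 ± 603 and 9.07 ± 1.67 CPM. Rgs8 (153653025 to 153700323, plus strand) ends 40.0 kb before Rgs16 (153740349 to 153745468, plus strand), and both were lower. Rgs2 (143999338 to 144004161, minus strand) and Rgs1 (144242296 to 144249242, minus strand), which did not pass, share a run with Rgs13, Rgs21 and Rgs18, with no other protein-coding gene in the gaps. In that run Rgs18, a regulator known from platelets and bone marrow cells, was higher in IP, with 336, 354 and 143 counts in IP 1, 2 and 4 against 2, 0, 0 and 14 counts in unbound 1 to 4 (log2 fold change 6.02 ± 1.16, edgeR adjusted p = 0.00231). Rgs7 (175059087 to 175492500, minus strand) lies further along chromosome 1, Rgs3 on chromosome 4 (62559847 to 62704001, plus strand), Rgs10 on chromosome 7 (128373621 to 128418758, minus strand), Rgs17 on chromosome 10 (5825663 to 5922400, minus strand) and Rgs9 on chromosome 11 (109225355 to 109298129, minus strand).

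The other genes with an RGS symbol gave 4 higher and 2 lower of 10 tested, beside 20.5% and 18.9% of all genes tested. Rgs13 and Rgs21 had too few counts to test. Rgs12, a long R12 protein, rose from 6.62 ± 2.46 CPM in unbound to 61.6 ± 22.8 CPM in IP (log2 fold change 3.22 ± 0.37, edgeR adjusted p = 8.77e-05). Its relative Rgs10 did not pass the test, and Rgs14, the third of that group, had 0.07 ± 0.74. Within the RZ group Rgs19 was higher (1.12 ± 0.32, edgeR adjusted p = 0.0182), Rgs20 had 0.27 ± 0.25 (adjusted p = 0.419), and Rgs17 was lower. Rgs19 lost its call without IP 1, IP 2 or unbound 3 (adjusted p = 0.0515, 0.0821 and 0.0534). Differences between these genes were not tested. Exons of Rgs11 and Rgs12 share 138 and 467 bases with genes on the opposite strand, and those of Rgs8 share 70.

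Within the R7 group Rgs11 fell by 2.79 ± 0.54 (edgeR adjusted p = 0.00252), beside Rgs7 and Rgs9. Within index ACAGTG Rgs11 missed the threshold, at -2.32 (edgeR adjusted p = 0.0592). The lower count of these other RGS genes was 0 there and with the filter of 5 CPM in 3 libraries. Rgs6 had -0.15 ± 0.28 (95% interval -0.76 to 0.47). Rgs6 was at 19.6 ± 0.63 CPM in IP and 21.8 ± 6.57 CPM in unbound. Rgsl1, an RGS-like gene, fell by 2.63 (adjusted p = 0.0239), though not without IP 1, IP 4 or unbound 1 (adjusted p = 0.0901, 0.0691 and 0.0512), so the lower count was 1 without any of these. Rgs22 had -0.09 ± 0.61.

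Of 5 partners of R7 proteins, 1 passed the test, beside 39.4% of all genes tested. Gnb5, the beta subunit without which R7 proteins are unstable, fell by 1.23 ± 0.22 (edgeR adjusted p = 0.0013), from 69.0 ± 7.89 to 29.4 ± 3.48 CPM. Rgs7bp, which anchors R7 complexes at the membrane, was at -0.64 ± 0.33 (adjusted p = 0.147), and with unbound 2 left out it passed at -0.82 (adjusted p = 0.0319). Without IP 4 the list's lower count was 2, and without unbound 2 it was 3. Gnb5, Rgs7, Rgs9 and Rgs11 were each lower, and Rgs6 was the R7 gene that did not pass.

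The alpha subunits, on which RGS proteins act, gave 4 higher and 4 lower of 14 tested, with a median log2 fold change of -0.08. Over all genes tested 20.5% were higher and 18.9% lower. Gnas, the stimulatory subunit and the most abundant, stood at 2733 ± 93.8 CPM in the IP and 2793 ± 398 CPM in the unbound libraries (-0.03 ± 0.25, adjusted p = 0.934). Gnai2, an inhibitory subunit, rose from 227 ± 34.1 to 1287 ± 59.7 CPM (2.50 ± 0.23, edgeR adjusted p = 1.91e-05), and Gna15, a Gq-class subunit of blood cells, rose by 3.06 ± 0.44. Gnal, the stimulatory subunit of olfactory and striatal neurons, fell by 1.69 ± 0.38 (adjusted p = 0.00525).

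The Gi/o class, the main substrate of R4 and R7 proteins, was split. Besides Gnai2, Gnai3 was higher (2.04 ± 0.26), while Gnai1 (-1.42 ± 0.32), Gnao1 (-0.96 ± 0.28) and Gnaz (-1.09 ± 0.24) were lower. These genes of the class, and Gnaq and Gna13, are named after their values were seen. Gnao1, with 558 ± 119 and 1084 ± 251 CPM, lost its call without IP 1, IP 2 or unbound 4 (adjusted p = 0.0744, 0.119 and 0.05). Gnaq, the Gq subunit that Rgs2 acts on, had -0.13 ± 0.27, and Gna13 rose by 1.58 ± 0.34.

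**Figure D5:**
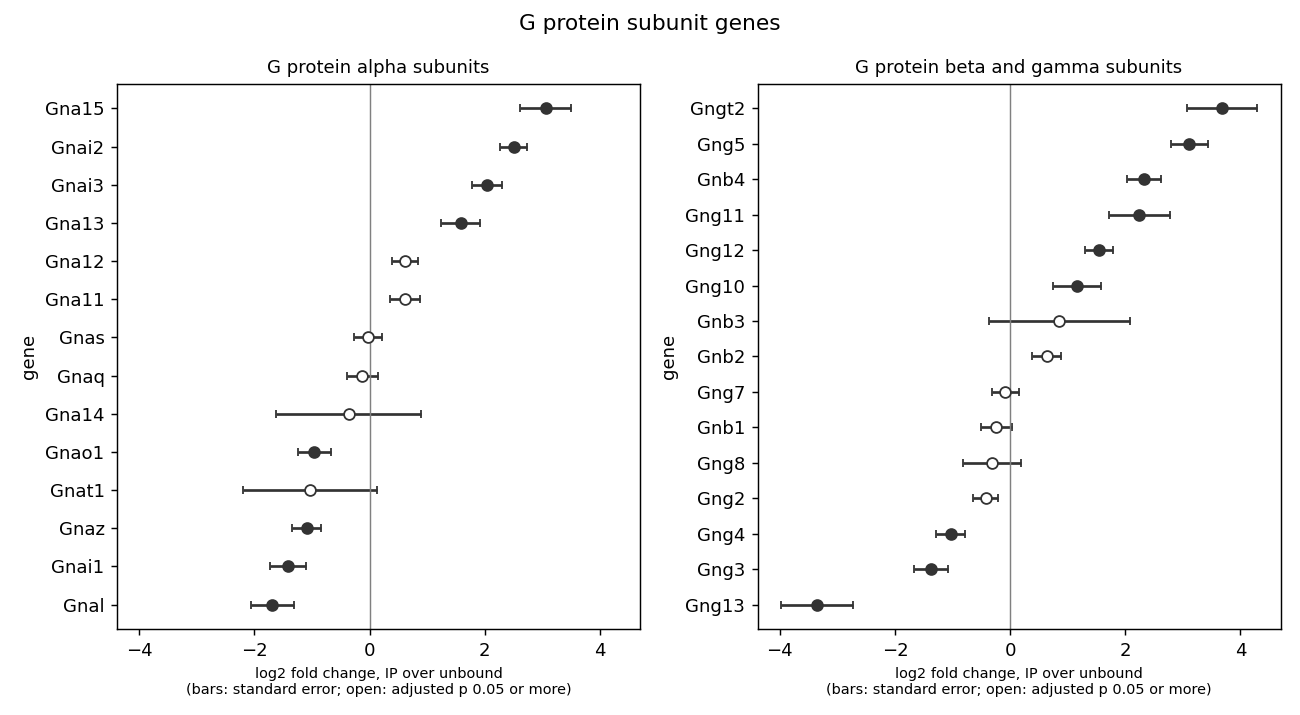
Log2 fold change of IP over unbound for the G protein alpha subunits (left) and the beta and gamma subunits other than Gnb5 (right), with bars for the standard error and filled marks past the threshold. Both families hold genes on each side of 0, from Gnal at -1.69 to Gna15 at 3.06 and from Gng13 at -3.35 to Gngt2 at 3.68.

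Of 15 tested beta and gamma subunits, 6 were higher and 3 lower, beside 20.5% and 18.9% of all genes tested. Gnb1, the most abundant, had 1616 ± 137 CPM in IP and 1904 ± 441 CPM in unbound (-0.24 ± 0.27, adjusted p = 0.507). Gngt2, a gamma subunit first known from cone cells, rose by 3.68 ± 0.61 and Gng5 by 3.11 ± 0.32 (edgeR adjusted p = 0.000913 and 4.06e-05). Gng13 fell by 3.35 ± 0.62 (adjusted p = 0.00192).

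Effectors of G proteins gave 5 higher and 8 lower of 17, beside 20.5% and 18.9% of all genes tested. Adcy4, an adenylyl cyclase, rose from 0.122 ± 0.112 to 16.8 ± 1.27 CPM (7.12 ± 0.62, edgeR adjusted p = 1.24e-05). Kcnj5, a subunit of the potassium channels that Gi/o signals open, fell by 2.10 ± 0.58 (adjusted p = 0.0146), and Plcb4, the most abundant of the list, had -0.48 ± 0.29 (adjusted p = 0.204; leaving out unbound 2 gave 0.0432). The higher count was 3 without IP 1 or unbound 2 and 2 without IP 2, IP 4 or unbound 3. The lower count was 3 without IP 1, 2 without IP 2 and 5 without unbound 3 or unbound 4. Over all genes tested the lower count fell too, from 3328 to 1899 without IP 1 and to 1751 without IP 2.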

How the data were processed

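RNA was sequenced from 3 IP and 4 unbound libraries. The authors deposited raw read counts per gene symbol. Per the submitters' processing notes, the genome was mm10, the aligner STAR 2.0.0e and the counter HTSeq. The sources used here give no annotation, strand setting or read filter. The 6 rows that name no gene were left out. The next values are percentages of all counts in a library, with the rows that name no gene included. Reads in no gene came to 13.4% to 18.6% in IP and 11.3% to 12.9% in unbound. Reads with more than 1 alignment came to 33% to 39.6% in IP and 17.6% to 34.6% in unbound. Pairs of libraries of the same group differed beyond sampling noise (chi-square per degree of freedom 66.4 or more). The pair of unbound 1 and unbound 2 had the highest value, 1055.

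The test was edgeR 4.0.16 in R 4.3.3 (filterByExpr, TMM, robust quasi-likelihood test, 2-sided, no covariate, Benjamini-Hochberg at 0.05). The standard error is the log2 fold change over the root of the F statistic. It was checked on simulated counts. Positions and lengths come from GENCODE M21 (GRCm38), promoters from RefSeq (GRCm38.p6). The alternatives changed the scaling (RLE, or library size only), the filter (none, or 5 CPM in 3 libraries), the tool (DESeq2 1.42.0, or voom in limma 3.58.1), the design (replicate block, index covariate) or the data (each index alone, the 10 most abundant genes out, each library out). IP was run on lanes 2 and 5 and unbound on lanes 1 and 3, so lane and group cannot be told apart.

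The 10 genes and all lists were chosen with earlier results of these data known. Named are the 10 genes, every other measured RGS gene and, of each pathway list, the most abundant gene, the one with the smallest p and those with the highest and lowest change past the threshold.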

Additional observations from a re-analysis of the deposited data

Results flagged for a closer look

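Among the 4 unbound libraries, 1 library stood apart for 2 of the 20 RGS genes checked, by Dixon's ratio of the gap to the range (critical value 0.829). Chance alone flags about 1 in 20 groups. Rgs10 in unbound 2 had 142 CPM, against 40.3 to 50.3 CPM in the other unbound libraries, a ratio of 0.901. Unbound 2 also differed as a library, with the lowest TMM factor of all libraries, 0.857. Reads with more than 1 alignment made up 34.6% of its counts, against 17.6% to 24.5% in the other unbound libraries. Whether this bears on its Rgs10 value was not tested. Rgs18 in unbound 4 had 14 counts, against 2, 0 and 0 in unbound 1 to 3, a ratio of 0.899.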

How the results depend on the processing

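Over 18 alternatives and 1 more chosen after seeing the data (without IP 4 and unbound 2 together), Rgs3, Rgs4, Rgs7, Rgs8 and Rgs17 kept their direction and passed in each of the 19. Rgs9 and Rgs16 kept their direction in each and passed in 15. Rgs10 passed in 3 and Rgs1 in 1, both as higher and both counting index GTGAAA. Within index ACAGTG 3840 of 17663 genes tested passed, 2190 higher and 1650 lower, and 2 of the RGS genes were higher and 3 lower. Within index GTGAAA the lone IP library, with no replicate, is assumed to vary like the unbound ones. There the log2 fold change was 1.36 for Rgs4 and 0.85 for Rgs3. It was -0.97 for Rgs7, -1.545 for Rgs8, -0.72 for Rgs9, -0.65 for Rgs16 and -1.34 for Rgs17. Leaving out each library gave 4547 to 7682 genes, 2796 to 4050 higher and 1751 to 3632 lower, with 2 to 3 RGS genes higher and 3 to 5 lower (3 without IP 1 or IP 2). Of the lists' genes, the kinase Grk6 turned, from -0.05 to 0.81 within index GTGAAA (adjusted p = 0.0367), and the cause was not tested. Library size only moved the median of all genes by 0.099 on the log2 scale. The replicate number as a block gave 5772 genes, 3154 higher and 2618 lower, with 2 RGS genes higher and 5 lower, and moved the lower effectors from 8 to 5. The numbers are not shown to pair the libraries, since deviations of same-numbered libraries correlated at -0.03, 0.04 and 0.16 and IP 1, unbound 1 and unbound 2 correlated best with a library of another number. Depth limits Rgs1, with 0 to 111 counts per library.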

Other observations

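Proteins outside the RGS gene family that carry an RGS-like domain gave 3 higher and 1 lower of 9. Over all genes tested 20.5% were higher and 18.9% lower. Arhgef1, which binds alpha subunits of the G12/13 class, rose from 17.2 ± 3.95 to 96.5 ± 4.25 CPM (log2 fold change 2.49 ± 0.24, edgeR adjusted p = 2.04e-05). Its relative Arhgef12, the most abundant of the list, rose by 0.98 ± 0.30 (adjusted p = 0.0257), but not past the threshold without IP 1, IP 2 or unbound 3 (adjusted p = 0.0601, 0.0892 and 0.0595). The sorting nexin Snx25 fell by 0.67 (adjusted p = 0.0241) and lost its call without IP 1, IP 2, unbound 3 or unbound 4 (adjusted p = 0.0981, 0.112, 0.0573 and 0.055), with library size only (adjusted p = 0.0639) and with the replicate number as a block (adjusted p = 0.101).

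Other proteins that bind alpha subunits gave 1 higher and 4 lower of 11, beside 20.5% and 18.9% of all genes tested. Gpsm3, a GoLoco protein of blood cells, rose from 2.62 ± 1.62 to 23.3 ± 3.01 CPM (3.16 ± 0.47, edgeR adjusted p = 0.00047). Rap1gap, which turns off the small G protein Rap1, fell by 1.83 ± 0.27 (adjusted p = 0.000408), and Ccdc88a, the most abundant, had 0.17 ± 0.26. Their lower count was 2 without IP 1 and 1 without IP 2. Over all genes tested the lower count went from 3328 to 1899 and 1751. Among receptor kinases and arrestins, 2 of 8 were higher, beside 20.5% of all genes tested. Grk5 was at 1.48 ± 0.29 (edgeR adjusted p = 0.00243) and Arrb1, the most abundant, at -0.35 ± 0.27 (adjusted p = 0.311). Without IP 1, IP 2, unbound 1, unbound 3 or unbound 4 that count was 1.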
